A study of Mus musculus with 4 samples.

Results

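The muscle genes described here are 44 genes of skeletal muscle: parts of the sarcomere, its anchoring and calcium handling proteins, the neuromuscular receptor and the factors that start the muscle program. They were chosen by symbol from a written list, with earlier results of these data known. Of the 44, 44 had a probe set of their own among 19938 genes on the array, each with 1 probe set. Their RNA was measured in the whole brain of fetal mice of the inbred strain C57BL/6J at embryonic day 16. The dams received ethanol (2.5 g per kg, in saline) or the same volume of saline alone by injection on days 14 and 16 of gestation, and brains were collected on day 16. Each of the 4 arrays (ethanol 1, ethanol 2, control 1, control 2) holds RNA pooled from 3 mice, 12 mice in all, with sex unknown per the labels and the litters behind each pool not given in the sources used here. All values below are the deposited log2 levels, and sets of 4 are in the order ethanol 1, ethanol 2, control 1 and control 2.

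Skeletal muscle fibres contract when myosin thick filaments pull on actin thin filaments inside repeating units, the sarcomeres, which Z discs and M bands hold in register. The genes for these parts come in families, and a fibre exchanges embryonic and fetal isoforms for adult ones as it matures. Myogenic regulatory factors (Myod1, Myf5, Myog and Myf6) bind E-box letters in the DNA of muscle genes, and the factors SRF and MEF2 bind CArG and MEF2 boxes. Skeletal muscle is not a tissue of the brain. In bulk RNA such as this, fewer cells of a type and less RNA per cell cannot be told apart.

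The labelled tissue was checked on 20 marker genes of brain neurons and progenitors, of which 19 were measured. Their levels lay between 8.86 and 14.27 in the 4 pools, and 0 of the 19 differed 2-fold between pools of a group, with median differences of -0.04 between the control pools and -0.02 between the ethanol pools. The pools also differed in sex-linked RNA. Xist, a noncoding RNA made from the inactive X chromosome, had levels of 11.96, 12.80, 6.10 and 12.84, lowest in control 1. The Y-linked genes were Eif2s3y (11.17, 10.03, 11.58 and 9.98), Kdm5d (10.12, 9.22, 10.59 and 9.07) and Uty (9.75, 8.81, 10.34 and 8.72). All were highest in control 1, and all were higher in ethanol 1 than in ethanol 2. The part of sex in the muscle values was not tested.

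Muscle gene levels differed widely between pools of the same group. Control 1 was the highest array for 41 of the 44 members, which holds for 26.8% of all genes, and for 34 members ethanol 2 came second, against 12.6% of all genes. The median member level was 6.98, 7.40, 8.45 and 6.93. Thus ethanol 1 and control 2 were the low pools, ethanol 2 was intermediate and control 1 was high, and neither treatment group lay together.

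Between the control pools, 26 of the 44 members were at least 2-fold higher in control 1 than in control 2, where 0.481% of all genes were. Their median difference over all 44 was 1.46, against -0.01 over all genes. Between the ethanol pools, 7 members were at least 2-fold higher in ethanol 2 than in ethanol 1, where 0.135% of all genes were, and the median was 0.35, against -0.03 over all genes. The same 7 were 2-fold higher in the control pair, but so were 25 of all 27 genes past 2-fold in the ethanol pair. No member was 2-fold lower in either pair, where 0.01% of all genes were in each. With 1 array on each side these differences have no replicate check, and no test was made of them. Because the members were chosen with earlier results known, the shares over all genes stand beside them as description only. For scale, the SD of the difference over all genes was 0.217 in the control pair and 0.168 in the ethanol pair. The members nearest the 2-fold line in the control pair were Tnnt2 (1.19) and Myf6 (1.22) above it and Ldb3 (0.93) and Myom1 (0.89) below it.

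**Figure D1:**
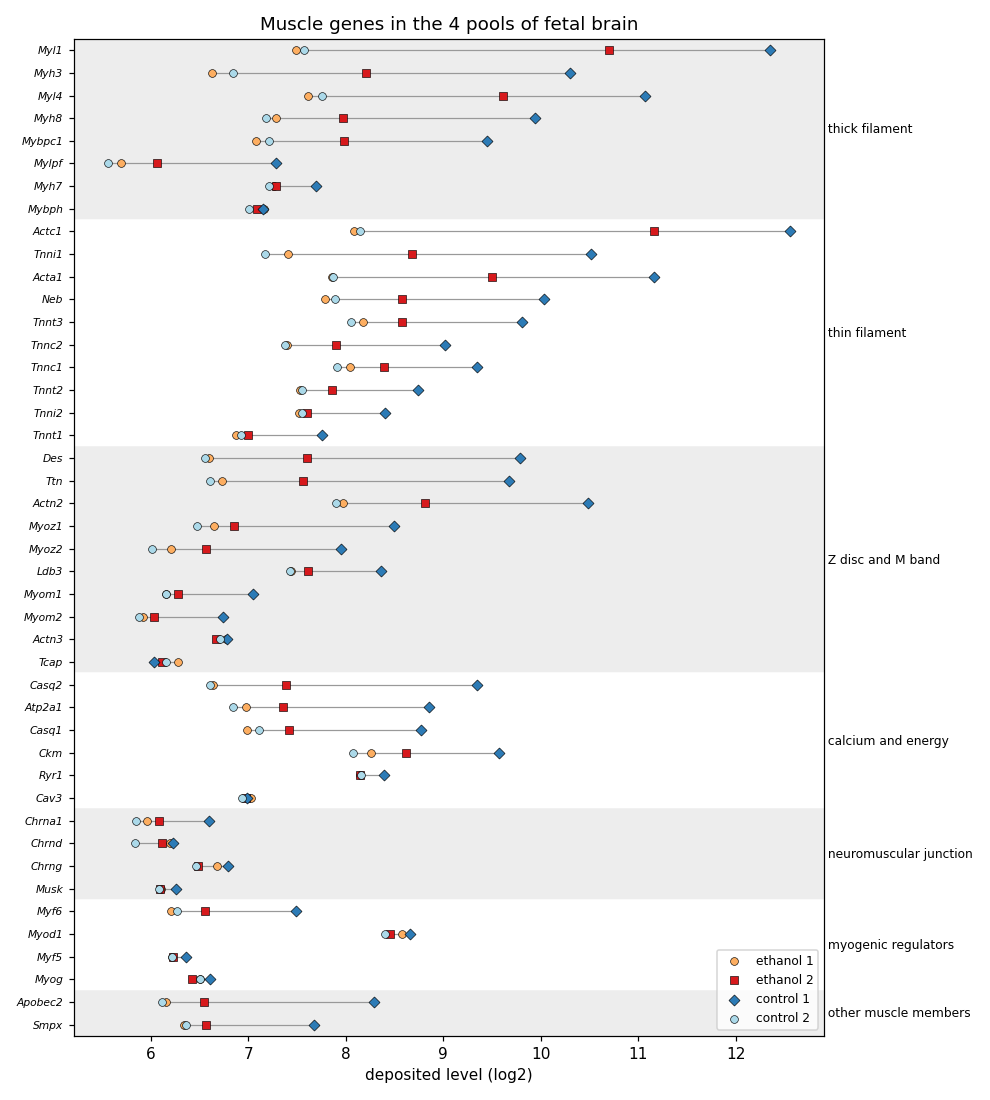
Deposited log2 level (x axis) of each of the 44 muscle genes (rows, grouped by role) in the 4 pools; each symbol is 1 array and the grey line spans the range. Control 1 is the rightmost symbol for 41 genes and ethanol 2 is second for 34 of them; levels of different genes come from different probes and are not to be set against each other.

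The DNA before the start of a few of these genes is shown, because they are among the members that moved together across the pools. They are the pair of striated muscle actins (Actc1, Acta1), a fast light chain (Myl1) and an embryonic myosin (Myh3). The regulator Myog is shown beside them. It barely moved, but its levels lay near the lower quartile of genes. Each sequence is the 250 bases upstream of the RefSeq start (assembly GRCm38.p6), read 5′ to 3′ on the gene's own strand, with capitals for matches on either strand to the E-box, the TATA box, the CArG box (a pair of C, a stretch of A or T, a pair of G) and the MEF2 box (its usual consensus, TA on each side of a stretch of A or T, after C or T and before A or G).
Actc1: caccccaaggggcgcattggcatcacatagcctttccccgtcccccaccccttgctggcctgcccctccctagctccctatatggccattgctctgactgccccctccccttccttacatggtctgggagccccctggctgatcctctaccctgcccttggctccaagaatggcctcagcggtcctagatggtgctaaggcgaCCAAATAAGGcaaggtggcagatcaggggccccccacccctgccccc
Acta1: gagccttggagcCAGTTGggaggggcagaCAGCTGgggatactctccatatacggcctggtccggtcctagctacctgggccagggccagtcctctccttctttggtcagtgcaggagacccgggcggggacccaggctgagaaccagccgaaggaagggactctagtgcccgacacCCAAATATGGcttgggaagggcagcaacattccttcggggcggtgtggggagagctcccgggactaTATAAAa
Myl1: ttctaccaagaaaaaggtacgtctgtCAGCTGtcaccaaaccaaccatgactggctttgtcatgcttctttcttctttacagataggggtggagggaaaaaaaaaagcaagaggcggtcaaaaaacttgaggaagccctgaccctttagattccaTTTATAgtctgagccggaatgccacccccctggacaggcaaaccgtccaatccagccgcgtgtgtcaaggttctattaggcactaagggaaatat
Myh3: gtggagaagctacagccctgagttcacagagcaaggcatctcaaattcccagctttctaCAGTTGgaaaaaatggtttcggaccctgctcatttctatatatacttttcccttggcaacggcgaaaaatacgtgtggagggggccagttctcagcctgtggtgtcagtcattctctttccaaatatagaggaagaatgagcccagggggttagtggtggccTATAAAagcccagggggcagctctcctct
Myog: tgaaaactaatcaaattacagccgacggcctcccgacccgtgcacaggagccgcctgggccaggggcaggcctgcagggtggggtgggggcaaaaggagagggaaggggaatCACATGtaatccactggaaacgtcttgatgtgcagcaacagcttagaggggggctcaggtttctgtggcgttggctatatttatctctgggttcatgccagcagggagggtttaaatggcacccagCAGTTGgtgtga
They lie at chr2:114052876-114053125 (minus strand), chr8:123894776-123895025 (minus), chr1:66945057-66945306 (minus), chr11:67078050-67078299 (plus) and chr1:134289754-134290003 (plus). The Actc1 stretch holds a CArG match, CCAAATAAGG, from 47 bases before the start, and that of Acta1 holds CCAAATATGG from 73 bases before it, beside 2 E-boxes and a TATAAA. Myl1 and Myh3 each have 1 E-box and 1 TATAAA, that of Myl1 on the other strand, and Myog has 2 E-boxes. Only exact matches are in capitals, so an unmarked stretch does not show that a site is absent. In Myog the letters ctatatttat miss the MEF2 box at the last base only.

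Of the 44 members, 34 have a sequence in the RefSeq promoter table, and 1 promoter per gene was searched, on both strands, over the 250 upstream bases. The letters CAGCTG, which are also a CANNTG match, occurred in 17 of the 34 and in 12.8% of all 27025 promoters. CANNTG occurred in 28 of the 34 and in 66.0% of all. TATAAA was found in 7 (13.0% of all), a CArG box in 4 (Actc1, Acta1, Ldb3 and Myom1; 1.40% of all) and a MEF2 box in 4 (Ttn, Casq2, Myoz2 and Myh8; 3.01% of all). Among the 22 that were at least 2-fold higher in control 1, CAGCTG occurred in 12, and among the other 12 in 5, of which Chrng, Chrna1 and Musk belong to the neuromuscular junction. A match describes the letters and is not evidence of binding.

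Among thick filament genes 6 of 8 were at least 2-fold higher in control 1 and 3 of 8 in ethanol 2, with medians of 2.49 and 0.80. Myl1, an essential light chain of fast fibres, stood at 7.49, 10.70, 12.35 and 7.57, so that control 1 exceeded control 2 by 27.5-fold and ethanol 2 exceeded ethanol 1 by 9.24-fold. Myl4, the light chain of embryonic muscle and of the atria, stood at 7.62, 9.61, 11.07 and 7.75. Myh3, the embryonic myosin heavy chain, stood at 6.63, 8.21, 10.30 and 6.84, or 11.0-fold apart in the control pair and 2.99-fold in the ethanol pair. In all 3 genes both groups hold 1 low and 1 high pool, and the groups overlap. Myh8, the perinatal myosin heavy chain, stood at 7.28, 7.97, 9.94 and 7.19. Mybpc1, the slow form of myosin-binding protein C, stood at 7.08, 7.98, 9.44 and 7.21. Mylpf, the regulatory light chain of fast fibres, stood at 5.70, 6.06, 7.28 and 5.56. These 3 were high in control 1 and under 2-fold apart in the ethanol pair. Myh7, the slow and cardiac myosin heavy chain, and Mybph, a relative of myosin-binding protein C, differed by 0.48 and 0.14 in the control pair.

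Among thin filament genes 8 of 10 were at least 2-fold higher in control 1 and 3 of 10 in ethanol 2, with medians of 1.70 and 0.45. Actc1, the actin of heart and of fetal skeletal muscle, stood at 8.08, 11.16, 12.56 and 8.15, which is 21.2-fold in the control pair and 8.45-fold in the ethanol pair. Acta1, the actin of adult skeletal muscle, stood at 7.86, 9.50, 11.16 and 7.87. Tnni1, the slow troponin I, stood at 7.41, 8.68, 10.51 and 7.17. Each of these 3 was over 2-fold higher in ethanol 2 than in ethanol 1 and again higher in control 1. The 2 actins code for nearly identical proteins, and whether their probe sets share signal was not tested. Neb, the nebulin ruler of the thin filament, stood at 7.78, 8.58, 10.03 and 7.89. Tnnt3, the fast troponin T, stood at 8.17, 8.58, 9.81 and 8.05. Tnnc2, the fast troponin C, stood at 7.40, 7.90, 9.02 and 7.38. All 3 kept the order of a high control 1 and an intermediate ethanol 2. Tnnc1, the slow and cardiac troponin C, stood at 8.04, 8.39, 9.34 and 7.91. Tnnt2, the troponin T of heart and embryonic muscle, stood at 7.53, 7.86, 8.74 and 7.55. Both showed the same order at smaller distances. Tnni2 and Tnnt1, the fast troponin I and slow troponin T, were higher in control 1 than in control 2 by 0.85 and 0.83.

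Among the genes of the Z disc and M band, 5 of 10 were at least 2-fold higher in control 1 and 1, Des, in ethanol 2. Des, the intermediate filament desmin that links neighbouring Z discs, stood at 6.60, 7.60, 9.79 and 6.56, or 9.40-fold and 2.01-fold apart in the control and ethanol pairs. Ttn, the giant spring titin, stood at 6.74, 7.56, 9.68 and 6.60. Actn2, the alpha-actinin that crosslinks actin at the Z disc, stood at 7.97, 8.81, 10.49 and 7.90. All 3 set control 1 well apart from the other pools. Myoz1 and Myoz2 are calcineurin-binding proteins of fast and of slow or cardiac Z discs. Myoz1 stood at 6.65, 6.85, 8.50 and 6.48. Myoz2 stood at 6.21, 6.57, 7.95 and 6.01. Their ethanol pools differed by 0.20 and 0.36, in the same order as the other genes. Ldb3, Myom1 and Myom2, a Z disc adaptor and a pair of M band proteins, were higher in control 1 by 0.86 to 0.93. Actn3, the fast alpha-actinin (0.06), and Tcap, the titin cap (-0.12), did not show the order, and Tcap was the only member lower in control 1 than in control 2. The Tcap probe set was dim, below the lower quartile of genes in every pool (6.28, 6.12, 6.03 and 6.15).

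Of the 6 genes of calcium handling and energy, 4 were at least 2-fold higher in control 1 and 0 in ethanol 2. Casq2, the slow and cardiac calsequestrin that stores calcium, stood at 6.64, 7.38, 9.34 and 6.61. Atp2a1, the calcium pump of fast fibres, stood at 6.98, 7.36, 8.85 and 6.84. Casq1, the skeletal calsequestrin, stood at 6.99, 7.42, 8.78 and 7.11. For these 3 genes only control 1 stood more than 2-fold away from the rest. Ckm, muscle creatine kinase, stood at 8.26, 8.61, 9.57 and 8.08. Ryr1, the calcium release channel, and Cav3, the caveolin of muscle membranes, differed by 0.24 and 0.05 in the control pair. Outside these roles, Apobec2, a muscle protein of the cytidine deaminase family, stood at 6.15, 6.54, 8.29 and 6.12, and Smpx, a small muscle protein, at 6.34, 6.57, 7.67 and 6.36.

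Of the 8 regulator and neuromuscular genes, 1 was at least 2-fold higher in control 1, with median differences of 0.20 over the regulators and 0.35 over the neuromuscular genes. The difference from the sarcomere roles was not tested. Of the 4 myogenic factors, only Myf6, the one most active in formed fibres, was over 2-fold higher in control 1, at 6.21, 6.56, 7.49 and 6.27. Myod1, which commits cells to the muscle fate, stood at 8.58, 8.46, 8.66 and 8.41. Myog and Myf5, which act in differentiation and in early precursors, differed by 0.11 and 0.15 in the control pair. Myod1, Myog and Myf5 thus spanned at most a 0.25 difference between the control pools, about the SD over all genes. Of the 4 neuromuscular genes none was 2-fold apart. Chrna1, the alpha subunit of the muscle acetylcholine receptor, stood at 5.96, 6.08, 6.60 and 5.85. Chrnd, the delta subunit, stood at 6.20, 6.11, 6.23 and 5.84. Chrng, the fetal gamma subunit, and Musk, the kinase that gathers receptors at the synapse, differed by 0.32 and 0.18. In both low pools 12 members lay below the array's lower quartile of genes, which was 6.42 to 6.54 over the 4 arrays. They include Myf6, Myf5, Chrna1, Chrnd and Musk, so 5 of these 8 genes were dim there. Myog lay near that quartile too, between 6.42 and 6.61 in the 4 pools, so its small difference rests on a dim probe set. Of the 12 members below the quartile in both low pools, 5 (Myoz2, Mylpf, Apobec2, Smpx and Myf6) were at least 2-fold higher in control 1.

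**Figure D2:**
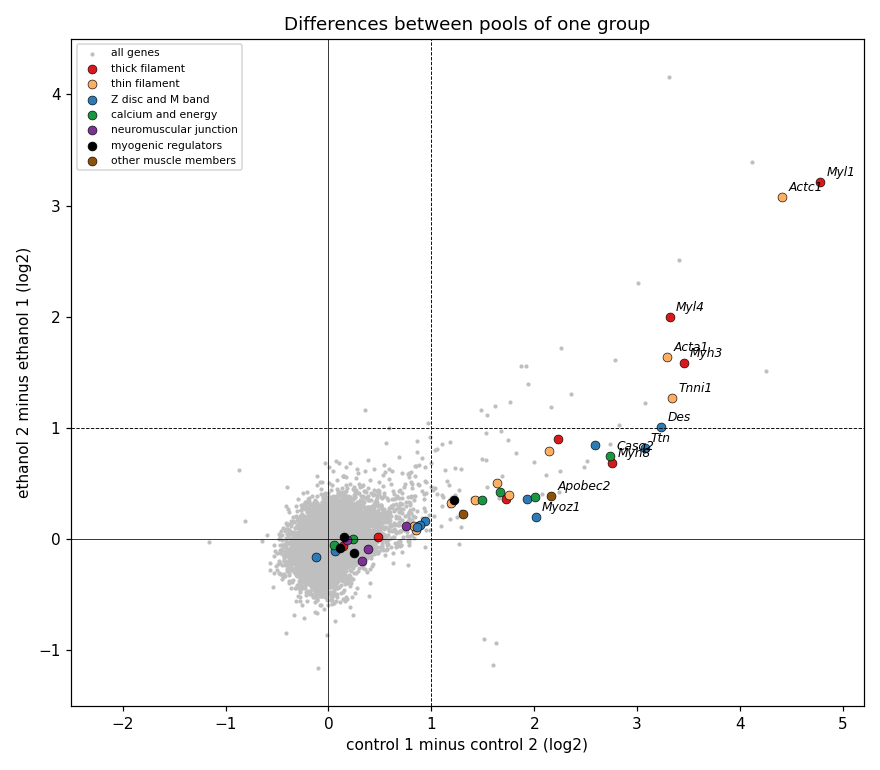
Difference between the control pools (x axis, log2) against the difference between the ethanol pools (y axis, log2) for all genes (grey) and the 44 muscle genes (coloured by role); dashed lines mark 2-fold, and 1 gene lies outside the axes. Among the muscle genes Myl1 (4.78 and 3.21) and Actc1 (4.41 and 3.08) are farthest out. Myod1, Myf5, Myog and Musk lie within the bulk of genes, as do Mybph, Actn3, Tcap, Cav3 and Ryr1 of other roles. The regulator Myf6 (1.22 and 0.35) lies past 2-fold in the control pair.

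Embryonic isoforms and adult isoforms were set side by side. Of 6 embryonic or fetal isoforms (Myh3, Myh8, Actc1, Myl4, Tnnt2 and Chrng), 5 were at least 2-fold higher in control 1, with a median of 3.03, and 3 were so in ethanol 2. Of 5 adult isoforms, of which Myh1, Myh2, Myh4 and Chrne are no members, Acta1 alone was. The adult fast myosin heavy chains Myh1, Myh2 and Myh4 differed by 0.14, 0.17 and -0.02 in the control pair and by -0.02, 0.05 and -0.05 in the ethanol pair. Chrne, the adult epsilon subunit of the receptor, differed by -0.02 and -0.18. Myh7, the slow and cardiac chain, lay between these and the embryonic chains at 0.48 and 0.02. Myh1 and Myh4 had levels below the lower quartile of genes (6.42 to 6.54) in every pool. Chrne lay below it in ethanol 2 and both control pools, and Myh2 lay a little above it, at 6.62 to 6.79. The embryonic isoforms are all members, chosen with results known, and most of the adult ones are not. The classes were thus not picked alike, and their difference was not tested. Of 9 fast isoforms 7 were at least 2-fold higher in control 1, with a median of 1.72, and of 6 slow or cardiac isoforms 4 were, with a median of 1.68.

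The ethanol pool difference was set against the control pool difference gene by gene, as a description with no error, since each value rests on single arrays and the control difference both chose the genes and is the denominator. On the linear brightness scale, the excess of ethanol 2 over ethanol 1 was expressed as a percent of the excess of control 1 over control 2 for the 26 members at least 2-fold higher in control 1, a measure added after the pool differences were seen. Its median was 16.9%, and it ran from 5.46% for Myoz1 to 35.1% for Actc1. After Actc1 came the light chains Myl4 (30.3%) and Myl1 (29.4%) and the actin Acta1 (23.8%). At the lower end, above Myoz1, came Apobec2 (9.11%), Atp2a1 (11.0%), Myh8 (11.3%) and Smpx (11.3%). Some low values rest on small ethanol differences, such as 0.20 for Myoz1 and 0.23 for Smpx, against an SD of 0.168 over all genes. By role the median was 19.8% in thin filament, 19.3% in thick filament, 13.4% in calcium and energy and 11.6% in Z disc and M band genes. How the background was corrected before deposit is not known, and its part in these percentages was not tested. Quantile normalization again gave a range of 8.25% to 35.4%, and centring each array on its median gave 6.41% to 36.2%.

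**Figure D3:**
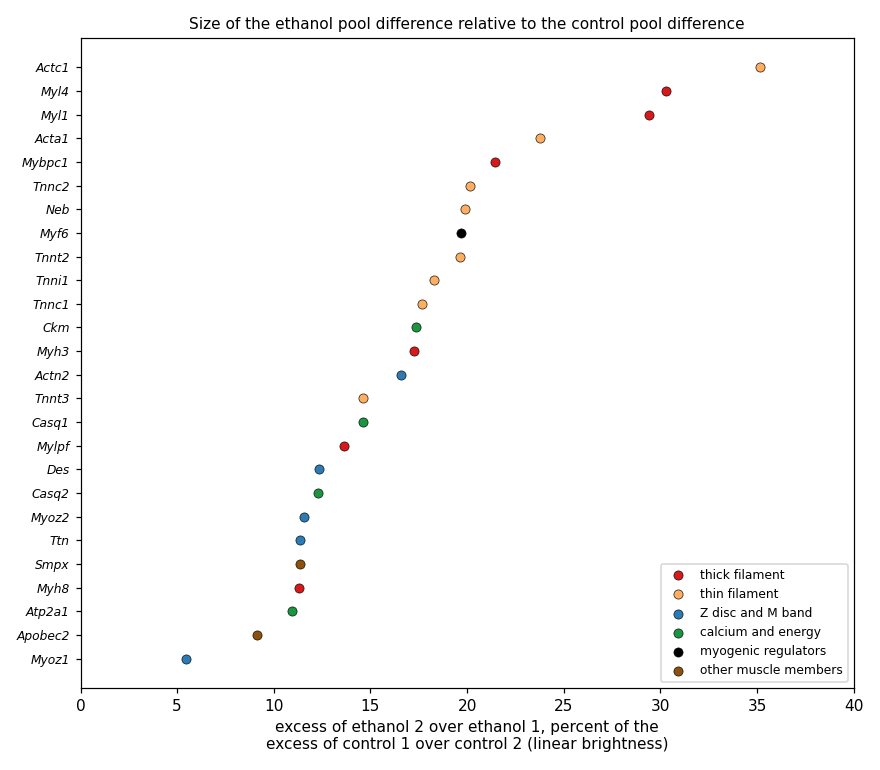
Excess of ethanol 2 over ethanol 1 as a percent of the excess of control 1 over control 2 (x axis, linear brightness) for the 26 muscle genes at least 2-fold higher in control 1 (rows, coloured by role); each point is 1 gene from 4 arrays, with no error since each pool is 1 array. Values run from 5.46% (Myoz1) to 35.1% (Actc1).

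Further genes of muscle were read from a written list of 54, of which 52 were measured. In the control pair 7 of the 52 were at least 2-fold higher in control 1, and in the ethanol pair 0 were, with medians of 0.24 and -0.02. The 7 were the tropomyosin Tpm2 (2.51), the muscle enolase Eno3 (2.48), myotilin Myot of the Z disc (2.25), the kelch protein Klhl41 (2.11), the glycogen phosphorylase Pygm (1.69), the fusion protein Mymk (1.29) and the filamin Flnc (1.18). This list held a smaller share of genes past 2-fold than the members, which were chosen with results known. Of the 52, 44 had a control difference above 0, against 9272 of all 19938 genes. In the ethanol pair 23 had, against 8296 of all genes. Much of the list was dim, with median levels of 6.75, 6.71, 6.92 and 6.69, near the lower quartile of genes. Of 10 measured muscle precursor factors, among them Pax3 and Pax7, 0 were 2-fold apart in either pair. In the control pair 6 of the 10 were above 0, and the median was 0.05. Eya1 had the widest control difference (0.75) and stood at 9.40, 9.71, 10.11 and 9.36, in the order of the muscle genes. Levels ranged widely, from Mef2c, at 11.43 to 11.63, to Msc, Tcf21 and Six4, below the lower quartile of genes in every pool.

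Several members are also active in heart or smooth muscle, so defining genes of those tissues were read in the same pools. Of 14 heart genes 0 were 2-fold apart in either pair. In the control pair 7 of the 14 were above 0, with a median of 0.01. The largest difference was 0.43 for Myl2, which lay below the lower quartile of genes in every pool. The atrial and ventricular genes Nppa, Myh6, Myl7 and Tnni3 differed by -0.03, 0.11, -0.12 and 0.06 in the control pair. All 4 lay between 5.79 and 6.72 in every pool, near the lower quartile of genes. Of 8 smooth muscle genes 1 was 2-fold higher in control 1, the actin Acta2 (8.65, 9.42, 10.67 and 8.85). In the control pair 6 of the 8 were above 0, with a median of 0.25, against -0.01 over all genes. The smooth muscle myosin Myh11 differed by -0.01.

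Markers of other tissues moved with the muscle genes to different degrees. Of 14 tendon and connective tissue genes, 7 were at least 2-fold higher in control 1 and 4 in ethanol 2, with medians of 1.10 and 0.47. The collagen Col1a1, of bone and connective tissue, stood at 8.97, 10.52, 10.86 and 8.98. Over those 7 genes the linear ethanol excess had a median of 50.4% of the control excess, with a range of 11.4% to 71.7%. Of 12 cartilage genes 0 and 1 were 2-fold higher in the control and ethanol pairs, of 7 bone genes 1 and 1, of 6 blood genes 1 and 1, and of 7 fat genes 2 and 0. Of 11 genes of skin and epithelium and 6 of Schwann cells, 0 were in either pair. The part of these tissues in the muscle values was not tested.

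**Figure D4:**
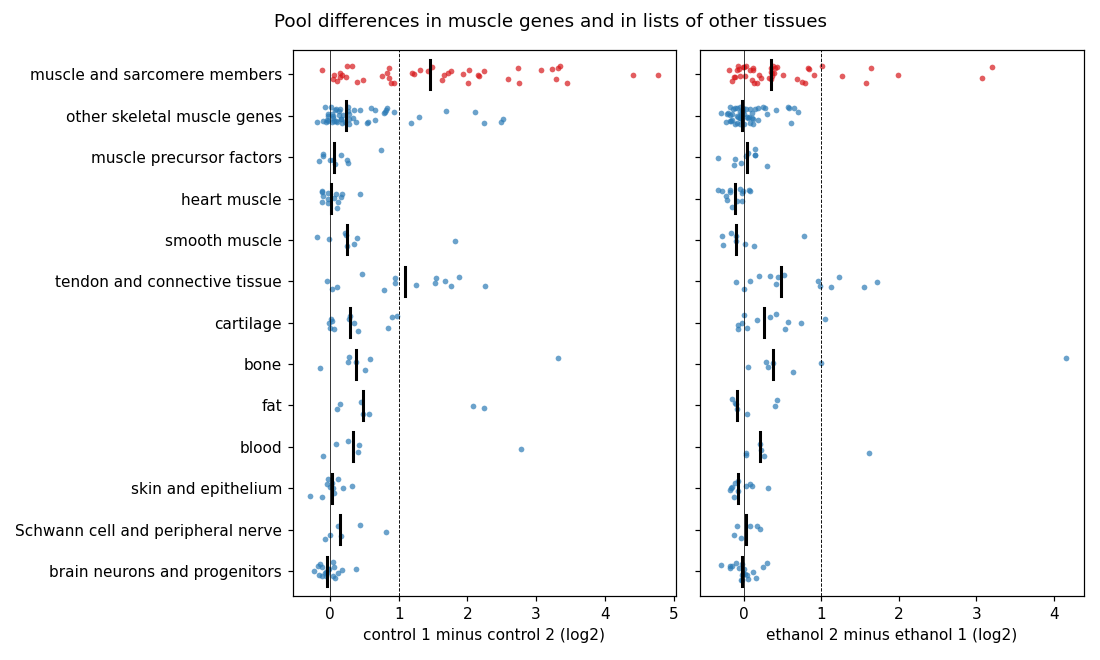
Pool differences (x axes, log2) of the 44 muscle genes (red) and of 12 lists of other genes (blue), in the control pair (left) and the ethanol pair (right); each point is 1 gene, black bars are list medians and the dashed line marks 2-fold. The muscle members have medians of 1.46 and 0.35, the connective tissue list 1.10 and 0.47, and the brain list -0.04 and -0.02.

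The comparison of ethanol with control asks whether these genes differ in the fetal brain after the exposure. Muscle gene levels were lower in the mean of the ethanol pools for 40 of 44 members, where 45.8% of all genes had a difference below 0, and the median difference was -0.52, against 0.01 over all genes. None passed the test: limma called 0 of 44 at an adjusted p under 0.05 (0% of all 19938 genes), 0 at an unadjusted p under 0.05 (2.94% of all genes), and 0 with the further condition of a 1.2-fold change (1.02% of all genes). Myh3 had the largest difference, -1.15 ± 1.13 (log2, SE, 2 arrays per group), followed by Des at -1.08 ± 1.01 and Ttn at -0.99 ± 0.95. Myl1 and Actc1, the members farthest apart between pools, stood at -0.87 ± 1.71 and -0.73 ± 1.60. In each of these genes the error is about as large as the difference or larger. The 4 members above 0 were Chrnd (0.12), Tcap (0.11), Mybph (0.05) and Cav3 (0.04). Chrnd and Tcap lay below the lower quartile of genes in every pool. The lowest adjusted p among the members was 0.980, in limma with Benjamini-Hochberg adjustment over all genes.

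Groups that do not overlap were found for 1 of the 44 members, against 31.4% of all genes. That member was Ryr1, whose ethanol pools stood at 8.15 and 8.14 and control pools at 8.39 and 8.15, and ethanol 1 minus control 2 was -0.01. In the other 43 members the groups overlapped.

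The direction of the ethanol difference changed with the pools compared. Among the low pools, ethanol 1 and control 2, the members differed by a median of 0.03, near the 0.02 over all genes. Their range was -0.21 (Myh3) to 0.36 (Chrnd). Among the high pools, ethanol 2 was lower than control 1 for 43 of 44 members. The median difference was -1.03, against -0.0046 over all genes. Tcap, dim in every pool, was the exception. Without control 1 the median ethanol difference turned to 0.25, with 42 members above 0, 0 called, and 2 past the unadjusted p with a 1.2-fold change (1.18% of all genes). Without control 2 it came to -1.17, and limma called 2 members, Myoz1 (-1.74, adjusted p = 0.0208) and Apobec2 (-1.94, adjusted p = 0.0394), against 0.0201% of all genes, and 33 passed the unadjusted rule (6.34% of all genes). In that fit control 1 is the lone control array and is assumed to vary like the ethanol arrays. Over all genes the median ethanol difference was 0.01 without control 1 and 0.02 without control 2.

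**Figure D5:**
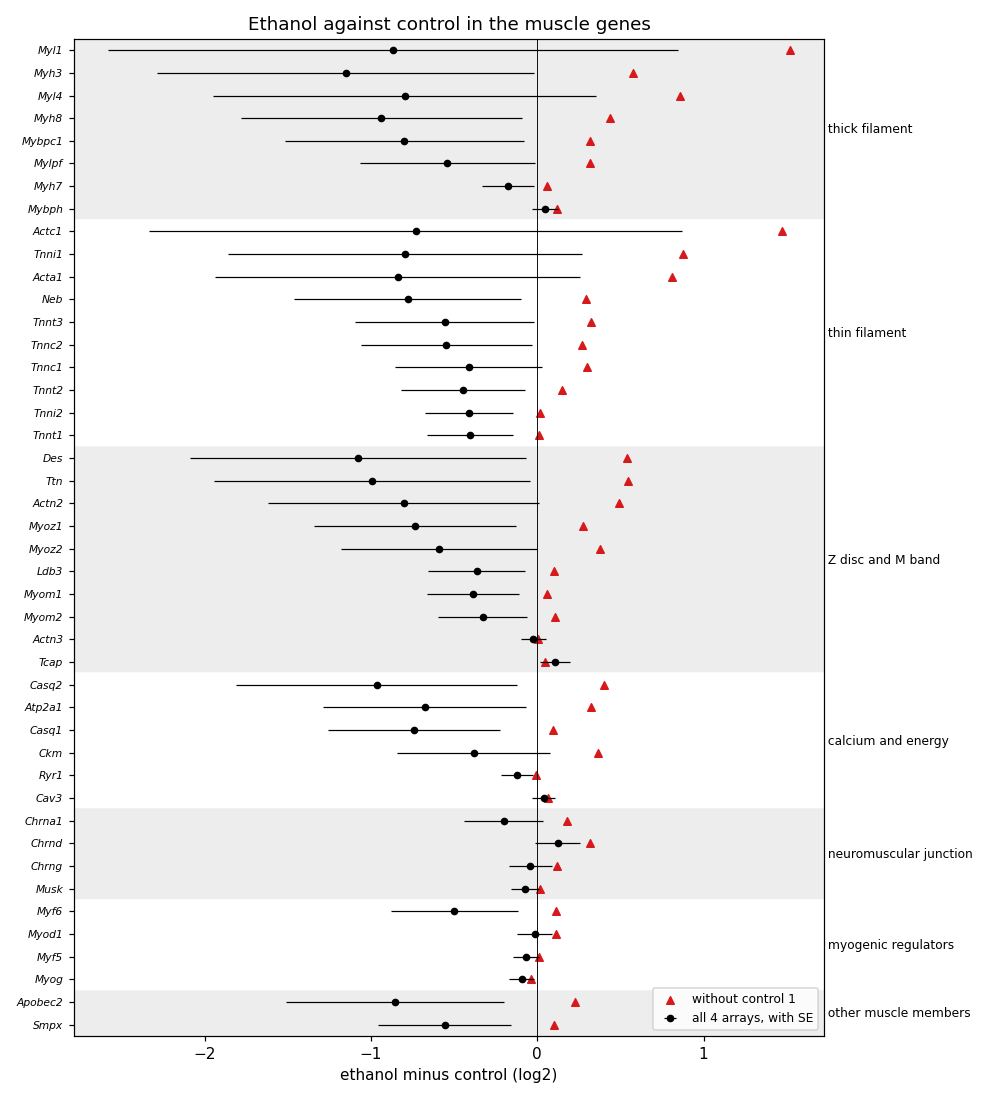
Ethanol minus control difference (x axis, log2) of the 44 muscle genes (rows, grouped by role), as the value from all 4 arrays with its SE (black) and the value without control 1 (red triangles). With all arrays 40 genes lie below 0, and without control 1, 42 lie above 0.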

How the data were processed

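RNA of whole fetal brains was read on 4 Affymetrix whole-transcript arrays. The values used are log2 levels per probe set as deposited by the authors. No source states the log base, which was inferred from the span of the levels. The software Partek 6.6 was used, per the submitters' processing notes. Background correction, normalization and build are steps not given in the sources used here.

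Probe sets with exactly 1 gene symbol in the platform annotation (21789 of 35556) were kept, symbols were updated by Entrez identifier (21698 matched), and the brightest set stood for each gene. The ethanol arrays were set against the control arrays with limma 3.58.1 (R 4.3.3; lmFit and eBayes, two-sided, 2 residual degrees of freedom). It was fitted on all 19938 genes with Benjamini-Hochberg adjustment. The fit was also run on simulated data as a check of the code. The simulated spreads came from the variance shared over all genes, so that run does not bear on whether a member's difference could be detected. Whether pools of a group came from separate litters is not stated, so p-values measure only the spread between these pools, and the number of arrays limits the precision. Pool differences have 1 array on each side and no test. Levels were printed in every pool for members at least 2-fold higher in control 1 than in control 2 and, in roles with fewer than 2 of these, for the 2 with the widest range. The table has 0 columns of other samples. The members, lists and rules were chosen with earlier results of these data known. Alternatives were other units, scalings, variance models, thresholds, a filter on dim genes, blocks and leaving out each array.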

Additional observations from a re-analysis of the deposited data

How the results depend on the processing

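The count of members called stayed at 0 except when an array was left out (0 to 2). The count past an unadjusted p under 0.05 with a 1.2-fold change, 0 with all arrays, ranged from 0 to 33 with an array left out. The median ethanol difference then ranged from -1.17 to 0.25. With the replicate number as a block 0 members were called and 0 passed the unadjusted rule. Same-numbered arrays deviated in opposite directions (correlation of deviations -0.484), and the labels do not tie the numbers to a shared litter or day. With the pairing crossed, added after the data were seen, 0 members were called and 9 passed the unadjusted rule, among 373 genes in all (1.87% of all genes). The crossed pairs are the low pools (ethanol 1, control 2) and the high pools (ethanol 2, control 1) of the muscle pattern. That block therefore takes out the pool difference seen in these genes, and the labels give it no basis. The median control pool difference was 1.71 among the 36 members above the lower quartile of genes. That filter used the mean over all 4 arrays, control 1 included. A gene dim elsewhere could thus pass by being high in control 1, as Apobec2 did (6.15, 6.54, 8.29 and 6.12). The rise from 1.46 is therefore partly built in by the filter. At a fold of at least 4, 16 members were higher in control 1 (0.176% of all genes) and 2 in ethanol 2 (0.0301%). At 1.5-fold, 32 members were higher in control 1 (1.34% of all genes) and 13 in ethanol 2 (0.431%). After quantile normalization again Myod1 changed from -0.01 to 0.01 in the ethanol difference. The other units, scalings and variance models moved no count of members by over 1.5 times. The main limits are 1 array per pool, 4 arrays in all, and a dim end whose processing is unknown.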

Other observations

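Outside the muscle list, 18 genes were at least 2-fold higher both in control 1 over control 2 and in ethanol 2 over ethanol 1, of 25 in all (0.125% of all genes). The members made up 27.1% of the 96 genes that were 2-fold higher in the control pair and 25.9% of the 27 in the ethanol pair. The 10 with the largest smaller difference were the carbonic anhydrase Car3, bone sialoprotein Ibsp, asporin Aspn, otoconin Oc90 of the inner ear, periostin Postn, the embryonic globin Hbb-y, the collagens Col12a1 and Col1a1, Atp1b4 and the lysyl oxidase Lox. In the order used above, Car3 had levels of 6.88, 10.28, 12.10 and 7.98. Atp1b4, a protein of muscle nuclear membranes, differed by 4.25 in the control pair and 1.51 in the ethanol pair.

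The order of the high pools was not the same in all of these genes. Ibsp stood at 7.05, 11.21, 10.82 and 7.50, with ethanol 2 above control 1, and its linear ethanol excess was 138% of the control excess. For Oc90 (7.77, 10.07, 10.20 and 7.19) it was 83.1%, for Hbb-y 43.9%, for Car3 27.1% and for Atp1b4 10.8%. These values were read after the data were seen and carry no test.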
